A study of Caenorhabditis elegans with 12 samples.

Results

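The genes described here are 10 insulin-like peptide genes of Caenorhabditis elegans, daf-28, ins-1, ins-3, ins-4, ins-5, ins-6, ins-7, ins-18, ins-26 and ins-33, read among 44968 gene entries in starved first-stage (L1) larvae. They were chosen by name. 7 were found by symbol in the authors' deposited table of daf-2 RNAi against empty vector, and the other 3, ins-4, ins-7 and ins-33, by sequence name in the count tables. Poly(A) RNA was sequenced from 12 libraries in 3 groups of 4, which the labels call biological replicates. The groups differ in what the parents ate: HT115 bacteria with an empty vector, with daf-2 RNAi or with pitr-1 RNAi, from the embryo on for 72 h. Every animal, controls included, carried hrde-1(tm1200). The larvae hatched without food and were frozen about 24 h after the bleach, so all groups were starved and none was fed.

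Insulin-like peptides of the worm are small secreted proteins, made as precursors, cut and packed into dense core vesicles, and released mostly by neurons and also by the intestine and other tissues. They act on DAF-2, the only insulin/IGF-type receptor of the worm, and through it on the forkhead transcription factor DAF-16. Agonists such as DAF-28, INS-4, INS-6 and INS-7 activate the receptor. INS-1 and INS-18 oppose it in genetic tests of dauer formation. In hatchlings without food, low signalling through DAF-2 holds development at the L1 stage, and feeding lifts the arrest. hrde-1 encodes a nuclear Argonaute of inherited silencing in the germline.

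Gene counts ranged from 5907286 to 11490429 per library. Mitochondrial transcripts took 2.67% to 5.51% of them in replicates 1 and 3 of every group and 0.606% to 0.95% in replicates 2 and 4, so libraries stood apart by replicate number. Exon length went with that number over the whole table, as given below. In the larvae, daf-2 RNA was at 65.3 ± 15.95 CPM (read counts scaled to a common adjusted library size; SD, n = 4) in empty vector and at 47.5 ± 19.3 CPM where parents ate daf-2 RNAi bacteria. pitr-1 was 217 ± 28.6 CPM after empty vector and 212 ± 73.5 CPM after pitr-1 RNAi. Neither difference passed the edgeR test (adjusted p = 1.00 for both). As only the parents ate RNAi bacteria, these levels do not check the labels. The larval label was checked only against adults: of 6 yolk protein genes, made by the adult intestine, none exceeded 3.93 CPM in any library. The muscle myosin unc-54 averaged 1359.5 CPM. These values do not tell L1 larvae from other larvae or late embryos.

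The 10 genes spanned a wide range of levels. Read per kilobase of exon, so that genes of different length can be set side by side, ins-1 stood at 124 ± 52.7 CPM per kb (SD, n = 12) and ins-18 at 90.2 ± 47.6. Both oppose the receptor in genetic tests. Below them came ins-26 at 33.7 ± 10.9, daf-28 at 23.9 ± 6.51, ins-3 at 20.6 ± 7.57 and ins-6 at 12.7 ± 5.23 CPM per kb. The last were low: ins-5 at 3.15 ± 1.59, ins-7 at 1.66 ± 2.56, ins-4 at 1.54 ± 1.09 and ins-33 at 0.347 ± 0.306 CPM per kb.

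Within single libraries most of this order held. ins-1 lay above ins-18, and ins-18 above ins-26, in 12 of 12 libraries. ins-3 lay above ins-6, and ins-6 above ins-5, in 12 of 12 as well. The steps from ins-26 to daf-28, from ins-5 to ins-7 and from ins-4 to ins-33 held in 10 of 12 each. Neighbours without a stable order were daf-28 over ins-3, in 7 of 12 libraries, and ins-7 over ins-4, in 4 of 12. None of the agonists led the list in any library: ins-1 exceeded daf-28 by 2.33-fold to 8.91-fold per kb in the 12 libraries, and ins-18 exceeded ins-6 by 4.07-fold to 14.7-fold.

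Among all 39 insulin-like peptide genes found, the 10 listed genes held 27.4% ± 3.41 (SD, n = 12) of the summed CPM per kb. ins-17, which is not on the list, alone held 25.7% ± 4.69 at 311 ± 203 CPM per kb. By the mean over all libraries ins-1 came second, followed by ins-27 at 117 ± 78.9, ins-35 at 107.8 ± 44.7 and ins-18. The order of these genes was not stable: ins-1 lay above ins-27 in 8 of 12 libraries and above ins-35 in 8 of 12, and after daf-2 RNAi ins-27 averaged 135 ± 75.0 and ins-1 108.3 ± 38.5 CPM per kb (SD, n = 4). daf-28, the agonist best known from sensory neurons, ranked 11 and ins-6 ranked 17. Reads of 8 of the 10 listed genes passed the filter on low counts used for the tests, as did 16 of the other 29 family genes.

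**Figure D1:**
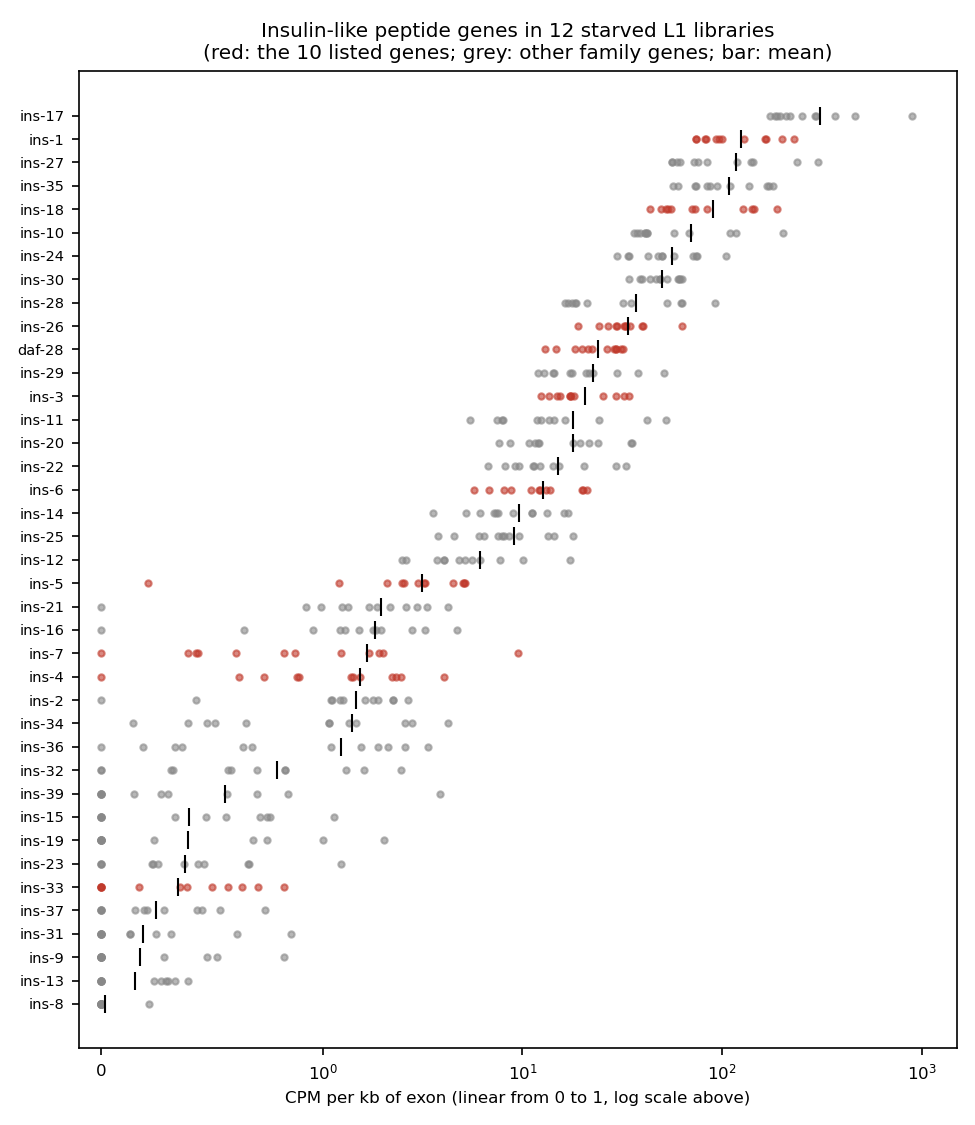
Level of 39 insulin-like peptide genes in 12 libraries of starved L1 larvae, in CPM per kb of exon (linear from 0 to 1, logarithmic above). Each point is a library, red for the 10 listed genes and grey for other family genes, and the bar is the mean; ins-17 leads at 311, and the listed genes run from ins-1 at 124 down to ins-33 at 0.347.

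ins-1, the worm gene whose product is closest to human insulin in its layout, had the highest level per kb of the list in every library. Its 4 empty vector libraries held 133, 59.7, 159.7 and 75.2 CPM (replicates 1, 2, 3 and 4), those of daf-2 RNAi 131, 77.3, 80.0 and 59.3 CPM, and those of pitr-1 RNAi 183, 66.7, 103 and 66.2 CPM. In each group replicate 1 or replicate 3 was the highest library, and the 3 groups overlapped over most of their range. The log2 fold change was −0.30 ± 0.38 (SE, n = 4; 95% interval −1.11 to 0.52) after daf-2 RNAi and −0.033 ± 0.38 (−0.85 to 0.78) after pitr-1 RNAi, each against empty vector. Neither passed the edgeR test, and both intervals reach 0.

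ins-18, which also opposes DAF-2 in dauer genetics, had 55.1, 24.0, 61.0 and 31.6 CPM after empty vector. After daf-2 RNAi the 4 libraries gave 62.2, 21.3, 30.7 and 23.01 CPM, and after pitr-1 RNAi 80.9, 22.6, 36.4 and 18.7 CPM. Replicate 1 was high in all 3 groups and replicate 3 only in empty vector, while replicates 2 and 4 lay between 18.7 and 31.6 CPM whatever the group. The log2 fold changes against empty vector were −0.32 ± 0.47 (SE, n = 4; 95% interval −1.33 to 0.69) and −0.13 ± 0.47 (−1.14 to 0.88). The ratio of ins-1 to ins-18 per kb ranged from 1.13 to 1.96 over the 12 libraries. Its medians were 1.22, 1.58, 1.41 and 1.39 in replicate numbers 1, 2, 3 and 4.

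Of the agonists, daf-28 is made in the ASI and ASJ sensory neurons, and its dominant mutation sends larvae into dauer arrest. It stood at 15.2, 24.5, 17.1 and 22.4 CPM after empty vector, at 22.5, 22.01, 9.99 and 16.2 CPM after daf-2 RNAi and at 23.8, 20.4, 11.3 and 14.01 CPM after pitr-1 RNAi. Replicate 3 was the lowest library of both RNAi groups, and values of all groups overlapped. The log2 fold changes were −0.17 ± 0.30 (SE, n = 4; 95% interval −0.80 to 0.47) after daf-2 RNAi and −0.20 ± 0.30 (−0.84 to 0.43) after pitr-1 RNAi. Both intervals leave out a doubling or a halving, which is 1 on this scale.

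ins-6, an agonist that promotes exit from dauer, had 4.57, 6.79, 10.3 and 5.71 CPM after empty vector, 10.95, 6.29, 7.16 and 3.52 CPM after daf-2 RNAi and 10.5, 6.35, 2.97 and 4.20 CPM after pitr-1 RNAi. Replicate 3 was the highest library of empty vector and the lowest of pitr-1 RNAi, and replicate 1 was the lowest of empty vector and the highest of both RNAi groups. The log2 fold changes were 0.022 ± 0.42 (SE, n = 4; 95% interval −0.88 to 0.92) and −0.23 ± 0.43 (−1.15 to 0.68). ins-3, a gene of the same chromosome II cluster with reported effects on L1 arrest, had 14.97, 10.7, 20.1 and 7.29 CPM after empty vector, 18.9, 7.95, 10.2 and 8.76 CPM after daf-2 RNAi, and 17.3, 9.05, 10.4 and 10.2 CPM where pitr-1 was targeted. Replicate 1 was the highest library in both RNAi groups and the second highest in empty vector. Its log2 fold changes of −0.21 ± 0.35 (SE, n = 4; 95% interval −0.97 to 0.55) and −0.19 ± 0.36 (−0.96 to 0.58) passed no test.

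ins-4 and ins-7, both agonists in genetic tests, were near the limit of what these libraries can show. Here 3 counts, the most that a count of 0 allows, equal 0.221 to 0.785 CPM depending on the library, and cover counting error only. ins-4 had 13, 15, 3 and 10 counts after empty vector, 9, 14, 8 and 5 after daf-2 RNAi, and 0, 6, 14 and 7 after pitr-1 RNAi. The library at 0 allows up to 0.785 CPM. The log2 fold changes of ins-4 were −0.48 ± 0.72 (SE, n = 4, 95% interval −2.03 to 1.07) and −0.83 ± 0.74 (−2.42 to 0.76). Both intervals include a fall of several-fold, while a rise is bounded at 1.07 and 0.76.

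ins-7, which in adults is expressed in the intestine and lies downstream of DAF-16 as well as upstream of the receptor, had 22 counts in empty vector replicate 1. In the other 11 libraries it had 0 to 8 counts. That library held 4.02 CPM and no other library more than 0.849 CPM. ins-7 stayed at 3 counts or fewer in 6 of 12 libraries and did not pass the filter. In a fit without a filter its log2 fold change after daf-2 RNAi was −1.90, with an edgeR adjusted p of 0.877.

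ins-26, the third gene of the list by level, had 15.2, 18.4, 28.9 and 13.6 CPM after empty vector, 18.1, 13.5, 15.8 and 8.76 CPM after daf-2 RNAi, and 12.3, 14.97, 14.8 and 11.1 CPM after pitr-1 RNAi. It was lower than in the same-numbered empty vector library in 3 of 4 pairs after daf-2 RNAi and in 4 of 4 after pitr-1 RNAi. The log2 fold changes, −0.44 ± 0.28 (SE, n = 4; 95% interval −1.03 to 0.16) and −0.51 ± 0.28 (−1.11 to 0.084), did not pass the edgeR test (adjusted p = 1.00 for both). With the replicate number as a block, the second was −0.47 with an unadjusted p of 0.0401 and an adjusted p of 0.999 in edgeR. Both values use the same 4 empty vector libraries, of which replicate 3 was the highest at 28.9 CPM.

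ins-5, another gene of the cluster on chromosome II, had 1, 49, 36 and 47 counts after empty vector, 26, 24, 18 and 52 after daf-2 RNAi, and 4, 32, 21 and 38 after pitr-1 RNAi. In CPM its mean was 3.22 ± 2.04, 2.77 ± 1.17 and 2.197 ± 0.824 (SD, n = 4 each). Replicate 1 was the lowest library of the empty vector and pitr-1 RNAi groups. Its log2 fold changes were −0.24 ± 0.58 (SE, n = 4; 95% interval −1.49 to 1.01) and −0.53 ± 0.59 (−1.80 to 0.73). ins-33 had no more than 5 counts in any library and 0 in 4 of 12, and did not pass the filter. In the fit without a filter its log2 fold change was 1.16 after daf-2 RNAi and 0.31 after pitr-1 RNAi, with edgeR adjusted p of 0.968 and 1.

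**Figure D2:**
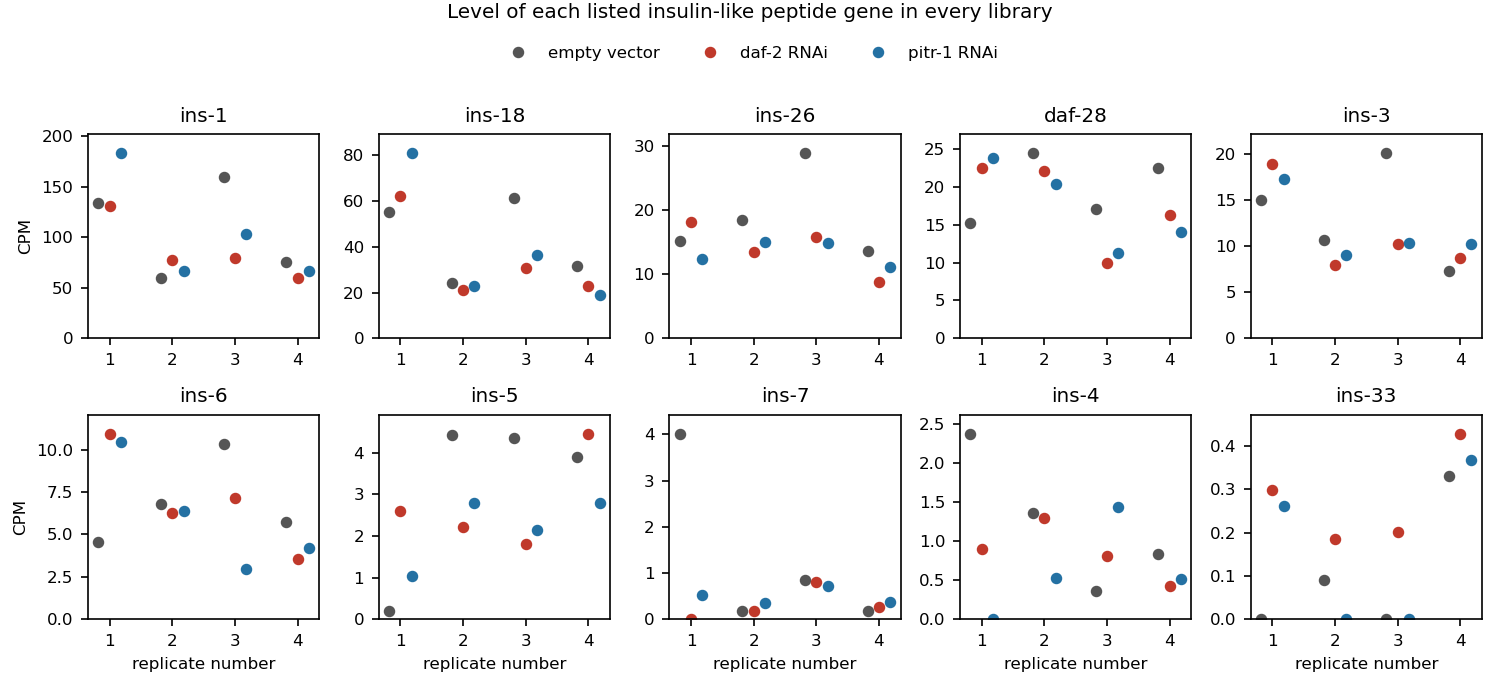
Level of each listed gene in every library, in CPM on axes that start at 0, against the replicate number of the library; colour gives the RNAi of the parents. ins-1 and ins-18 are high in the 3 libraries of replicate number 1 (131 to 183 and 55.1 to 80.9 CPM) and low in those of numbers 2 and 4, while the 3 colours overlap in every panel.

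The first question of the design is whether RNAi against daf-2 or pitr-1 in the parents moved these genes in starved progeny. No listed gene passed the edgeR quasi-likelihood test in any of the 3 comparisons (0 of 8 tested; lowest adjusted p = 1.00 in each). Few genes of any kind did: over the 14664 genes tested, 0.0341% were called for daf-2 RNAi against empty vector, 0.00682% for pitr-1 RNAi against empty vector and 0.0136% for daf-2 against pitr-1 RNAi. At an unadjusted p under 0.05 there was still none of the 8, beside 3.59%, 1.73% and 2.23% of all genes. DESeq2 called none of them either (0.227%, 0.00322% and 0.162% of all genes). A p that misses the threshold does not show that levels were alike. Without a block, the widest intervals were those of ins-4 and the narrowest those of ins-26, whose SE was 0.28 in all 3 comparisons. The replicate number as a block changed these SE. For daf-2 RNAi against empty vector it fell from 0.38 to 0.19 for ins-1 and from 0.47 to 0.20 for ins-18. That of ins-4 went the other way, from 0.72 to 0.74. ins-18 was then at −0.39 ± 0.20 (SE), with an edgeR adjusted p of 0.673.

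Most point estimates lay below empty vector. After daf-2 RNAi 7 of 8 listed genes were below 0 at a median of −0.27 on the log2 scale, and after pitr-1 RNAi 8 of 8 at a median of −0.22. The medians over all genes tested were 0.0048 and 0.022. Both comparisons share the 4 empty vector libraries, so their directions are not separate observations. Between daf-2 and pitr-1 RNAi 5 of 8 lay above 0 and 3 below, with a median of 0.057. In no comparison did the 2 groups separate completely for a listed gene, which 2.62%, 1.35% and 2.05% of all genes did.

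Other family genes were read the same way. Of 24 family genes tested, 0 were called in any comparison in edgeR, and at an unadjusted p under 0.05 there was 1 for daf-2 RNAi (ins-11) and 1 for pitr-1 RNAi (ins-2). With the replicate number as a block there were 3 for daf-2 RNAi, with ins-20 and ins-28 added, and 3 for pitr-1 RNAi, with ins-26 and ins-35 added. ins-11 stood at 9.95 ± 7.28 CPM after empty vector and 4.06 ± 1.91 CPM after daf-2 RNAi (SD, n = 4 each). Its log2 fold change was −1.28 ± 0.60 (SE), lower in 4 of 4 pairs, with an edgeR adjusted p of 1.00. ins-2 stood at 0.403 ± 0.339 CPM after empty vector and 1.30 ± 0.207 CPM after pitr-1 RNAi (SD, n = 4 each). These groups did not overlap, which held for 1 of 24 family genes beside 1.35% of all genes. ins-2 is near the limit of these libraries, with 0, 7, 6 and 3 counts after empty vector and 5, 15, 15 and 14 after pitr-1 RNAi. The library at 0 allows up to 0.548 CPM. These family genes, other than the listed ins-26, were named after their values were seen.

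The replicate number as a block raised the calls over all genes to 46, 1 and 22 in the 3 comparisons, or 0.314%, 0.00682% and 0.15%, and still called 0 of 24 family genes in edgeR. At an unadjusted p under 0.05 the block gave 0, 1 and 0 of the 8 listed genes, beside 8.23%, 3.65% and 4.73% of all genes tested, which is also the background of the family counts with the block. The authors' deposited table holds 7 of the listed genes, all below 0 in both of its comparisons. In the authors' deposited table their log2 fold changes run from −0.43 to −0.047 for daf-2 RNAi with a lowest false discovery rate of 0.726. For pitr-1 RNAi they run from −0.46 to −0.042, and the lowest false discovery rate in the authors' deposited table is 0.999.

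**Figure D3:**
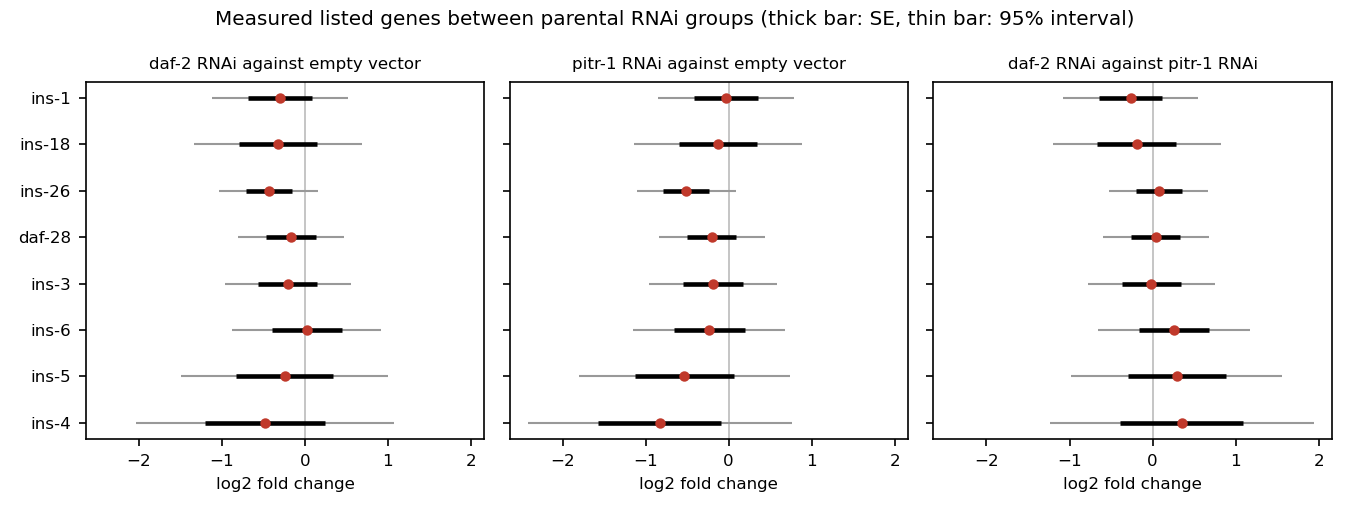
Log2 fold changes of the 8 listed genes that could be tested, in the 3 comparisons of parental RNAi. Points are edgeR estimates without a replicate block, thick bars 1 SE and thin bars 95% intervals. All intervals cross 0, from ins-26 with an SE of 0.28 to ins-4 with an SE of 0.72 to 0.74.

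Levels of 3 listed genes differed between libraries of different replicate number. ins-18 averaged 66.1 ± 13.3 CPM (SD, n = 3) in the libraries of number 1, 22.6 ± 1.37 in number 2, 42.7 ± 16.1 in number 3 and 24.5 ± 6.58 in number 4. ins-1 averaged 149 ± 29.5, 67.9 ± 8.88, 114 ± 41.0 and 66.9 ± 7.96 CPM, and ins-3 17.1 ± 1.98, 9.23 ± 1.38, 13.6 ± 5.69 and 8.76 ± 1.48 CPM. In the edgeR test of the 3 replicate terms together, 3 of 8 listed genes were called, against 26.6% of all genes tested. All 8 have up to 1000 bases of exon, 2 of them up to 500. The shares over all genes of these lengths were 33.5% (over 500 and up to 1000 bases) and 55.9% (up to 500 bases). The count of listed genes is thus near that of short genes of any kind. The adjusted p was 0.00095 for ins-18, 0.00289 for ins-1 and 0.0447 for ins-3.

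Relative to number 1, ins-18 fell by 1.56 ± 0.24 on the log2 scale (SE) in number 2 and by 1.47 ± 0.24 in number 4, and ins-1 fell by 1.12 ± 0.22 and by 1.16 ± 0.22. For ins-3 the differences were −0.91 ± 0.29 and −0.96 ± 0.28. Number 3 lay between, with −0.69 ± 0.23 for ins-18, −0.41 ± 0.22 for ins-1 and −0.38 ± 0.28 for ins-3. Values went another way for ins-5, at 1.19 ± 0.64, 0.98 ± 0.65 and 1.41 ± 0.63 in numbers 2, 3 and 4, with an edgeR adjusted p of 0.333. daf-28 was lowest in number 3, at −0.72 ± 0.26, where its adjusted p was 0.0828, and ins-26, ins-6 and ins-4 had edgeR adjusted p of 0.102, 0.347 and 0.833. The labels do not say what libraries of the same number share.

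ins-1 and ins-18 kept their call without any 1 of the 12 libraries (edgeR adjusted p of at most 0.0174 and 0.00949). ins-3 lost its call in 8 of 12 omissions: without replicate 2 or 4 of any group, or without replicate 1 of daf-2 or pitr-1 RNAi (edgeR adjusted p 0.0641 to 0.181). Without empty vector replicate 1, the library with the fewest ins-5 counts, 6 of 8 listed genes were called, with daf-28, ins-6 and ins-26 added (edgeR adjusted p 0.00236, 0.0277 and 0.0308). The share over all genes tested rose as well in that omission, to 38.1%. Without empty vector replicate 3 there were 4, with daf-28 added at an adjusted p of 0.0479 in edgeR, beside 27.8% of all genes. Of the family, 13 of 24 (54.2%) were called with all libraries, beside 26.6% of all genes and 55.9% of genes of up to 500 bases, the class of 14 of the 24. Besides the 3 listed genes these were ins-10, ins-11, ins-17, ins-20, ins-24, ins-27, ins-28, ins-29, ins-30 and ins-35.

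Exon length moved with this result. All 24 family genes tested have 295 to 866 bases of exon, and short genes of every kind differed between numbers. Of 1002 genes of up to 500 bases, 55.9% were called between numbers, with a median log2 difference of −1.09 for number 2 against number 1. For genes of over 500 and up to 1000 bases the share was 33.5% and the median −0.45. Over 2000 bases the median was 0.49 in the other direction. ins-18, with 432 bases, and ins-1, with 803 bases, lay below the median of their length class in numbers 2, 3 and 4.

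**Figure D4:**
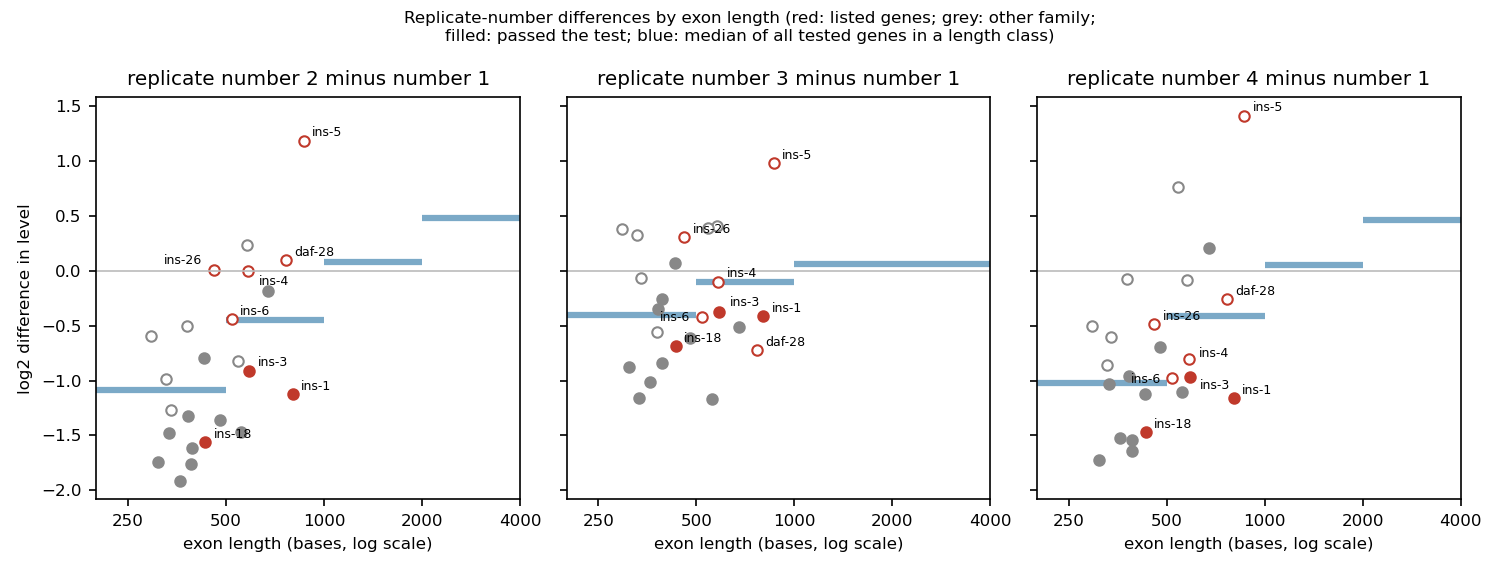
Log2 difference between replicate numbers against exon length (log scale) for listed genes (red) and other family genes (grey), filled where the edgeR test between numbers was passed; blue lines are medians over all tested genes of a length class. Most family genes lie low at the short end, where the class median is −1.09 for number 2, and ins-1 lies at −1.12 although its class median is −0.45.

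With each library's trend of level on exon length removed, 3 of 8 listed genes were called between numbers, ins-1, ins-18 and daf-28 (edgeR adjusted p 0.016, 0.0486 and 0.0129), against 16.4% of all genes tested. ins-1 then fell by 0.77 ± 0.19 in number 2 and by 0.83 ± 0.19 in number 4 relative to number 1, and ins-18 by 0.59 ± 0.17 and by 0.58 ± 0.17. ins-3 was no longer called (edgeR adjusted p = 0.695), and ins-26 stood at 0.0528. The trend removal left 6 of 24 family genes called, the other 3 being ins-17, ins-24 and ins-30. In the RNAi comparisons 0 of 8 listed genes were called with the trend removed, with or without the replicate block (edgeR).

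daf-28 behaved apart from ins-1 although their exon lengths are close, 766 and 803 bases. With the trend removed, daf-28 was at 0.51 ± 0.21 in number 2 and at −0.63 ± 0.22 in number 3, against number 1. Per kb, ins-1 exceeded daf-28 by 5.56-fold to 8.40-fold in the libraries of number 1 and by 7.64-fold to 8.91-fold in number 3, but by 2.33-fold to 3.35-fold in number 2 and by 3.20-fold to 4.51-fold in number 4. In RNA of whole larvae, fewer cells of a type and less RNA per cell cannot be told apart. The part of the mitochondrial share, of the ribosomal RNA share, of depth and of RNA quality in these differences was not tested.

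**Figure D5:**
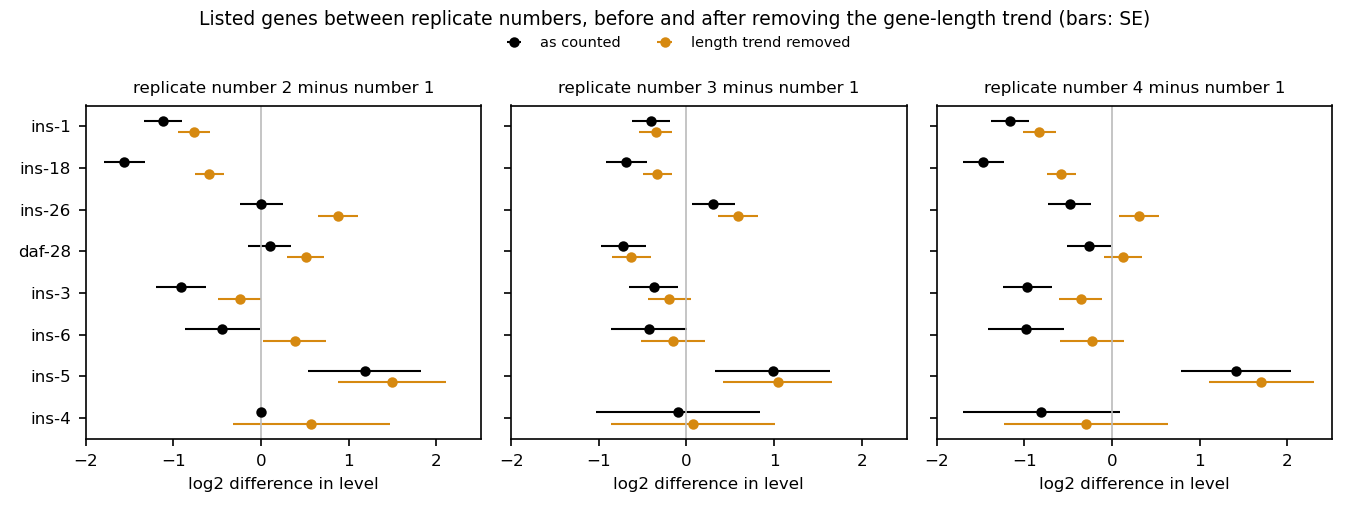
Log2 differences of the listed genes in numbers 2, 3 and 4 against number 1, as counted (black) and with the gene-length trend removed (orange); bars are 1 SE, and ins-4 in number 2 has none as its estimate was near 0. ins-1 stays below 0 in all 3 panels, while ins-26 moves from 0.0040 to 0.88 in number 2.

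Genes that make, carry and read these peptides were taken as lists. Of 18 genes of the DAF-2 pathway, all measured, 0 were called for parental RNAi in edgeR, with or without the replicate block. The transcription factor daf-16 averaged 245 ± 40.8 CPM and the receptor daf-2 54.1 ± 17.2 CPM (SD, n = 12), and the 14-3-3 genes par-5 and ftt-2 averaged 599 and 402 CPM. Between replicate numbers 6 of 18 (33.3%) were called, beside 26.6% of all genes, among them daf-16, the PI3-kinase age-1, the adaptors ist-1 and shc-1, and skn-1. age-1 had 11.1 to 15.7 CPM in number 1 and 21.7 to 24.8 in number 2. These are long genes, 13 of 18 with over 2000 bases of exon, a class whose median was 0.49 in number 2. The list median was 0.23 in number 2 and 0.20 in number 4 against number 1, and −0.17 and −0.18 with the length trend removed, where 3 of 18 were called beside 16.4% of all genes.

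Of 20 genes of peptide processing and dense core vesicles, 0 were called for parental RNAi in edgeR. Against the same empty vector libraries, 17 of 20 lay below 0 after daf-2 RNAi and 16 of 20 after pitr-1 RNAi. Their medians were −0.11 and −0.16. egl-21, a carboxypeptidase that trims peptide precursors, averaged 783 CPM, and sbt-1, a chaperone of the convertase EGL-3, 658 CPM. Between numbers 8 of 20 (40%) were called, beside 26.6% of all genes. Of genes over 2000 bases, the class of 10 of the 20, 31.4% were called. Among the 8 called, egl-3, the prohormone convertase of neurons, had 281 to 551 CPM in number 1 and 605 to 774 CPM in number 2. cab-1 had 472 to 568 and 731 to 834 CPM, and unc-13, a priming factor of vesicle release, 50.3 to 71.7 and 111 to 118 CPM. cpd-1, pghm-1, ida-1 and pkc-1 were also called. unc-108, the Rab2 gene needed for dense core vesicle maturation, went the other way, with 806 to 1224 CPM in number 1 and 591 to 633 CPM in number 2. The list median was 0.39 in number 2 and 0.51 in number 4, and that of the 24 insulin-like peptides −0.95 and −0.91. Their exon lengths differ, with a median of 2003 bases against 445.5 bases. With the length trend removed the list medians were 0.18 and 0.25 for the processing genes and −0.14 and 0.022 for the insulin-like peptides. Of the processing genes 6 of 20 were then called, beside 16.4% of all genes.

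Markers of the cells that hold these peptides were read beside them. Of 24 amphid sensory neuron genes 22 were tested, and che-1 and str-2, under 2.7 CPM everywhere, were not. Their summed level was 228 to 348 CPM over all libraries, with the TGF-beta ligand daf-7 at a mean of 132 CPM. Between numbers 3 of 22 (13.6%) were called, daf-11, gcy-18 and odr-10, beside 26.6% of all genes. The 12 pan-neuronal genes summed to 1017 to 1347 CPM, with snb-1 and rab-3 among the highest. Of them 5 (41.7%) were called, beside the same 26.6%: snb-1, unc-18, unc-10, unc-13 and unc-119. With the length trend removed 1 of 22 amphid and 0 of 12 pan-neuronal genes were called, beside 16.4% of all genes. The pan-neuronal medians were then −0.034 and 0.069 in numbers 2 and 4, against 0.35 and 0.36 as counted. Of 11 intestine genes tested, asp-1, ifb-2 and vha-6 were highest. As counted, 2 of 11 (18.2%), pept-1 and mtl-2, were called between numbers, beside 26.6% of all genes. With the length trend removed 1 of 11 was called, beside 16.4% of all genes. end-3, of the embryonic intestine, was at 0 in several libraries.

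Muscle markers differed between numbers in the same libraries. Of 11 body wall muscle genes tested, 9 (81.8%) were called between numbers, beside 26.6% of all genes. These were unc-54, unc-15, lev-11, myo-3, unc-22, unc-27, mup-2, tnt-3 and unc-89. Of the 11 muscle genes, 8 have over 2000 bases of exon, a class with 31.4% called and a median of 0.49 in number 2. With the length trend removed 4 of 11 were called, beside 16.4% of all genes. Their summed level was 2792 to 3451 CPM in numbers 1 and 3 and 5165 to 6416 CPM in numbers 2 and 4. Of 10 pharynx genes 5 (50%) were called, myo-1, myo-2, tni-4, marg-1 and phat-2, beside 26.6% of all genes. tnc-2 was also among the highest. With the length trend removed 5 of 10 were called, beside 16.4% of all genes. Of 9 hypodermis genes, with elt-3, lin-26 and nhr-25 at the highest CPM, 1 (11.1%), sqt-3, was called, beside 26.6% of all genes. With the length trend removed 0 of 9 were called, beside 16.4% of all genes. The part of muscle, pharynx and hypodermis genes in the differences of insulin-like peptides was not tested.

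Of 16 germline and maternal genes, 15 had estimates above 0 after daf-2 RNAi and 16 after pitr-1 RNAi, against the same empty vector libraries. Their median was 1.15 on the log2 scale after daf-2 RNAi and 0.95 after pitr-1 RNAi, with 0 of 16 genes called in edgeR in either. Their summed level was 49.6 to 110 CPM after empty vector, 72.0 to 283 CPM after daf-2 RNAi and 78.6 to 297 CPM after pitr-1 RNAi, so the groups overlapped. By replicate number it was 72.0 to 115 CPM in number 1, 110 to 283 in number 2, 49.6 to 297 in number 3 and 78.3 to 85.4 in number 4. The high sums thus lay in RNAi libraries of numbers 2 and 3. In each of these numbers the empty vector library was the lowest, at 110 and 49.6 CPM. All 16 genes were read in the same libraries, so their directions are not separate observations. mex-3 was among the 3 genes of highest CPM. Between numbers 6 of 16 (37.5%) were called, beside 26.6% of all genes: pos-1, glh-1, oma-2, rme-2, mex-5 and spn-4. With the length trend removed 4 of 16 were called, beside 16.4% of all genes. The list medians against number 1 were then 0.96, 1.02 and −0.30 in numbers 2, 3 and 4. Of 11 intestine genes, 2 were called lower after daf-2 RNAi with the replicate block and 0 without it (lowest edgeR adjusted p 0.0172 and 0.274). Over all genes the called shares were 0.314% and 0.0341%. Without the block, 11 of 11 lay below 0 after daf-2 RNAi and 9 of 11 after pitr-1 RNAi, at medians of −0.20 and −0.12. No yolk gene was called, with vit-1, vit-2 and vit-6 highest at 1.59 to 1.84 CPM.

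Genes whose level over the 12 libraries was most like that of a listed gene were named by Pearson's r of log2 CPM among 9898 genes of at least 5 CPM. These points share library, depth and replicate number, and r is given as a description. For daf-28 they were daf-7, which ASI neurons also make, at r = 0.927 and the zinc finger gene ccch-1 at 0.924. For ins-1 they were F53F4.1 and C18A11.2, both at 0.985, and for ins-18 cki-1, a cyclin-dependent kinase inhibitor, at 0.982 and cni-1, a cornichon-type cargo receptor, at 0.981. For ins-3 they were ztf-1 at 0.951 and Y57G11C.31 at 0.95, for ins-6 madd-3 at 0.869 and F23H11.7 at 0.858, and for ins-26 ZC13.2 at 0.868 and W01C8.5 at 0.857.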

How the data were processed

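Each library has a deposited table of raw counts per gene. A workbook deposited by the authors gives, for 2 comparisons, log2 fold changes, mean log2 CPM, p-values, false discovery rates and an F score. Bowtie 1.2.2, HTSeq and edgeR are named in the submitters' processing notes; coordinates are left out because the genome build is not given in the sources used here. The kit does not mark strand, per the labels' protocols, but no exon of a listed gene overlaps another gene in the Ensembl annotation used for names and exon lengths. Summary entries of the count tables took no part. Reads outside any feature made up 1.71% to 4.60% of all, ambiguous reads 4.59% to 8.45% and unaligned reads 16.3% to 39.8%.

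Counts as deposited were tested with edgeR 4.0.16 in R 4.3.3 (TMM, filterByExpr, robust quasi-likelihood fit of all 12 libraries by group, two-sided, Benjamini-Hochberg adjusted p under 0.05 over 14664 genes). CPM uses the TMM-adjusted library size. Standard errors were derived from the fold change and its F value. p-values measure the spread between libraries. Differences between replicate numbers come from a fit with group and number. Same-numbered libraries deviated together (correlations 0.137 to 0.505, 0.104 to 0.508 and 0.434 to 0.610 in the 3 pairs of groups, all above 0.1). Libraries of other numbers ran from −0.54 to 0.49, −0.46 to 0.38 and −0.55 to 0.49, so some reached the same-numbered range. The pattern is a feature of the data and not of the labels, so block values are given where they change a count. Alternatives were DESeq2 1.42.0, other size factors and filters, the compared groups alone, no ribosomal RNA genes, each library left out, and, chosen after seeing the data, a loess trend of log2 CPM on exon length (span 0.3) removed from each library. Fits were tested on simulated counts that held no gene-length trend, so that test does not cover the trend seen here. Named genes were the 10 listed, family genes called or among the 5 highest per kb, and the 2 genes most like each member. List genes were named if called between replicate numbers or among the 3 highest. Members and the 11 gene lists were chosen with earlier results of these data known. 1 gene of the lists is not reported here.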

Additional observations from a re-analysis of the deposited data

Results flagged for a closer look

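In 30 sets of 4 libraries (10 listed genes in 3 groups), a single library far from the other 3 was looked for, which chance gives in about 1 set in 20. There were 2. ins-3 in pitr-1 RNAi replicate 1 stood at 17.3 CPM (66 counts), with the other 3 libraries of its group at 9.05 to 10.4 CPM. ins-5 in empty vector replicate 1 stood at 0.183 CPM (1 count), with the other 3 at 3.89 to 4.44 CPM. Both libraries carry replicate number 1, where ins-3 was 14.97 and 18.9 CPM in the other groups and ins-5 was 2.59 and 1.05 CPM. The cause was not tested.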

How the results depend on the processing

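No listed or other family gene was called between parental RNAi groups under any alternative run. Genes called for daf-2 RNAi against empty vector numbered 5, but 46 with the replicate block, 13 without a filter, 39 by DESeq2, 8 with the length trend removed, 100 with block and length together, and 0 to 3 without 1 library. For pitr-1 RNAi against empty vector the number was 1, with 3 under block and length together and 0 to 1 without 1 library. For daf-2 against pitr-1 RNAi it was 2, with 22 under the replicate block, 6 without a filter, 23 by DESeq2, 0 on the 2 groups alone, 4 with the length trend removed, 45 with block and length, and 0 to 2 without 1 library. Between replicate numbers 3901 genes were called and 2367 with the length trend removed (2580 to 5735 without 1 library), of the family 13 and 6 (9 to 17), and of the listed genes 3 and 3 (2 to 6). The cause of these changes was not tested.

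Apart from omissions of 1 library, 3 of 213 log2 fold changes of listed genes changed sign: ins-6 for daf-2 RNAi against empty vector, at −0.1065 with the replicate block and −0.0063 with block and length, and ins-3 for daf-2 against pitr-1 RNAi, at 0.0245 without a filter. With 1 library left out, 28 of 192 changed sign, none of which had passed a test. For daf-2 RNAi against empty vector the ranges were −0.30 to 0.0304 for daf-28, −0.56 to 0.0747 for ins-3 and −0.28 to 0.29 for ins-6. For pitr-1 RNAi against empty vector they were −0.43 to 0.22 for ins-1, −0.40 to 0.086 for ins-3, −0.59 to 0.0234 for ins-6 and −0.71 to 0.11 for ins-18. For daf-2 against pitr-1 RNAi they were −0.12 to 0.24 for daf-28, −0.53 to 0.14 for ins-1, −0.37 to 0.21 for ins-3, −0.0346 to 0.45 for ins-5, −0.0417 to 0.62 for ins-6, −0.64 to 0.40 for ins-18 and −0.0671 to 0.25 for ins-26.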
